A study of Mus musculus with 36 samples.

Results

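The genes described here are Pglyrp1 and 6 other genes of myeloid granules or antimicrobial defence (Lyz2, Lcn2, S100a8, S100a9, Ngp and Camp), measured in brain RNA of APP/PS1 and wild-type mice. They were taken by symbol from the deposited mRNA table, with FPKM (fragment counts scaled to transcript length and library size) summed over the transcripts of each gene, and are 7 of its 22154 genes. Pglyrp1 was chosen for its higher values at 9 than at 6 months, so its age differences are given as a description with no test. The other 6 genes were named for what they are known to encode, with earlier results of these data known.

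Peptidoglycan is the cell wall polymer of bacteria, and animals defend against it with proteins that bind, cut or sense it. Pglyrp1 is a secreted peptidoglycan recognition protein stored in neutrophil granules, and Lyz2 is the lysozyme of macrophages and other myeloid cells, which cuts peptidoglycan. Lcn2 (lipocalin 2) withholds iron from bacteria by binding their siderophores. S100a8 and S100a9 form calprotectin, which binds zinc and manganese, and Ngp and Camp are proteins of neutrophil granules, with Camp the precursor of the cathelicidin peptide. In the brain, lysozyme is made by microglia and other macrophages, and lipocalin 2 can be induced in astrocytes, endothelial cells and choroid plexus by inflammation.

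The design text and labels give 4 groups on the C57BL/6 strain. They were APP/PS1 at 9 months, wild type at 9 months, APP/PS1 at 6 months and wild type at 6 months, with 3 long RNA libraries and 3 small RNA libraries in each group used here. APP/PS1 mice express the APP695swe and PS1-dE9 mutations and form amyloid plaques as they age, and the wild-type mice carry neither. The sources used here do not give the promoter that drives the transgenes, the sex of the mice or whether a library held 1 animal or a pool. Whether the libraries within a group stem from different animals is not stated in the labels. The p-values below therefore rest on the spread among these libraries, and that spread may be technical.

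Per library, between 16757 and 17062 mRNA genes were above 0 and their FPKM added up to between 292540 and 301778. The number of reads behind them is unknown. The protocol text names retinas while the tissue label reads brain. Among photoreceptor markers, Sag averaged 0.537 FPKM, Gnat1 0.0232 FPKM, Pde6a 0.0117 FPKM and Crx 0.00707 FPKM over the 12 libraries, while 6 neuron markers summed to 1657 to 1842 FPKM per library. Markers of structures at the edge of the brain varied between libraries. Summed over 10 choroid plexus markers, the level ran between 6.13 and 355 FPKM. Summed over 3 pituitary hormone genes, it ran between 0.96 and 237 FPKM. The highest pituitary sum was in APP/PS1 3 of 9 months, where Pomc alone stood at 228 FPKM.

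The promoters of 4 members are shown because Pglyrp1 is the gene chosen for its age difference and Lcn2, S100a8 and S100a9 were high in the same libraries. Each is the 250 bases before the start of transcription, 5′ to 3′, from RefSeq on GRCm38.p6. Capitals mark letters that match a motif searched on both strands: C/EBP (TTGCNNAA), NF-kB (GGG, any pair of bases, then TTTCC), PU.1 (GAGGAA), the TATA box (TATAAA) or STAT (TTCNNNGAA). In S100a8 a PU.1 match and the TATA box stand next to each other without overlap and so read as a single run of capitals.
Pglyrp1 promoter, chr7:18884440-18884689, forward strand: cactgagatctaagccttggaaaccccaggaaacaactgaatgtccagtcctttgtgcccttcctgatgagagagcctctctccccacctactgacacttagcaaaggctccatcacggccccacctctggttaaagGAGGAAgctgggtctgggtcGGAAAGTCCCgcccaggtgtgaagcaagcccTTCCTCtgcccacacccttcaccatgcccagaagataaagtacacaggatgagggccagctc
Lcn2 promoter, chr2:32387740-32387989, reverse strand: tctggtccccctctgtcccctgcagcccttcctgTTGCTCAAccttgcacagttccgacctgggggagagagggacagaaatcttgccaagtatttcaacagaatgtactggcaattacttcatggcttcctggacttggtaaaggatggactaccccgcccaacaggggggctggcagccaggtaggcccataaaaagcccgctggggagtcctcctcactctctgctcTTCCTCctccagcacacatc
S100a8 promoter, chr3:90668821-90669070, forward strand: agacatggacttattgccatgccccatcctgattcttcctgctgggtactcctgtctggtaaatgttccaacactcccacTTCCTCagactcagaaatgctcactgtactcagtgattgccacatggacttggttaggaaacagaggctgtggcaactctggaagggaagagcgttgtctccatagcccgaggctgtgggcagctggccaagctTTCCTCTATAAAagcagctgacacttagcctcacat
S100a9 promoter, chr3:90695722-90695971, reverse strand: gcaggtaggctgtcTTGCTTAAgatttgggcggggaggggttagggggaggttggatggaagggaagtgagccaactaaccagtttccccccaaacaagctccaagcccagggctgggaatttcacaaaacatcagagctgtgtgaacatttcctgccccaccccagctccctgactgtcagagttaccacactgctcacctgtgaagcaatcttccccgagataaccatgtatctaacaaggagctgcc
The Pglyrp1 window held GGAAAGTCCC, the NF-kB letters on the other strand, at bases -93 to -84 from the start, and PU.1 letters at -113 to -108 and at -62 to -57. The NF-kB letters occurred in 1.4% of 32851 promoter windows of the same length and the PU.1 letters in 23.3%. PU.1 letters also stood at -20 to -15 in Lcn2 and at -170 to -165 and -36 to -31 in S100a8, while S100a9 had none. Lcn2 held C/EBP letters at -216 to -209 and S100a9 at -236 to -229, and S100a8 held none. C/EBP letters were found in 9.6% of all windows. S100a8 held the TATA box at -30 to -25. Its letters stood anywhere in the window, on either strand, in 12.4% of all windows. No STAT letters (7.0% of all windows) were in any of the 7 members' windows. These matches describe the letters and not binding.

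Pglyrp1 was higher at 9 than at 6 months in both genotypes. It measured 6.81, 5.78 and 6.81 FPKM in APP/PS1 libraries at 9 months and 8.76, 8.02 and 7.34 FPKM in wild-type libraries at 9 months. At 6 months it measured 3.21, 4.63 and 3.46 FPKM in APP/PS1 libraries and 2.77, 3.15 and 3.53 FPKM in wild-type libraries. Every library of 9 months was thus above every library of 6 months. Within a genotype, 10.8% of all tested genes had this arrangement in APP/PS1 mice and 8.55% in wild-type mice. The means were 6.47 ± 0.598 FPKM at 9 months against 3.77 ± 0.759 FPKM at 6 months in APP/PS1 mice, a ratio of 1.72, and 8.04 ± 0.71 FPKM at 9 months against 3.15 ± 0.38 FPKM at 6 months in wild-type mice, a ratio of 2.56 (SD, n = 3 each). Ordered by the difference in log2(FPKM + 0.25), Pglyrp1 stood at place 62 from the highest of 13593 genes in APP/PS1 mice, with a difference of 0.75, and at place 37 in wild-type mice, with 1.29. By the smaller of its 2 age differences it stood at place 18. These values are the ones it was chosen by and support nothing further.

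Between the genotypes Pglyrp1 did not pass the test at either age. At 9 months all 3 APP/PS1 libraries were below all 3 wild-type libraries, as was so for 8% of all tested genes. The difference was -0.30 in log2(FPKM + 0.25) (SE 0.13, 95% interval -0.60 to -0.01) with an adjusted p of 0.496 by limma with Benjamini-Hochberg adjustment over 13593 genes. At 6 months the groups overlapped, and the difference was 0.23 (interval -0.06 to 0.52, adjusted p = 0.535). The genotype difference at 9 months minus that at 6 months was -0.54. It equals the difference of the 2 age differences used in choosing the gene and is given without a test.

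**Figure D1:**
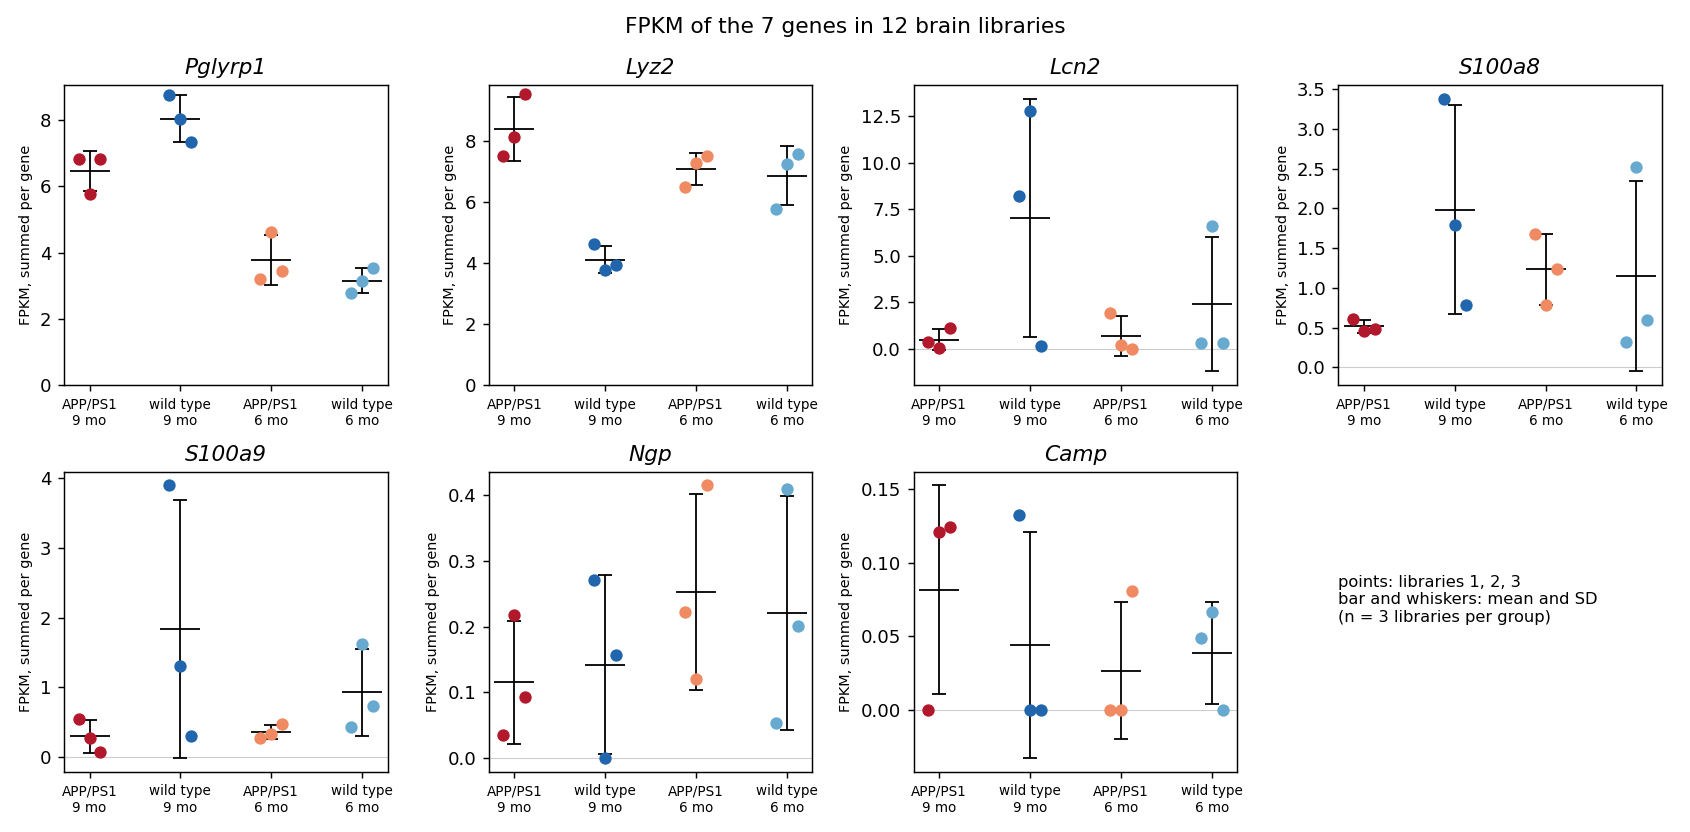
FPKM summed per gene for each of the 7 genes (vertical axis, a separate scale for each gene) in the 4 groups. Points are libraries 1, 2 and 3, the horizontal bar is the mean and whiskers are the SD (n = 3 libraries per group); Pglyrp1 is at or above 5.78 FPKM in all 6 libraries of 9 months, and Lyz2 is lowest in the 3 wild-type libraries of 9 months.

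The 5 genes whose profile over the 12 libraries was most like that of Pglyrp1 were Vamp1, Esyt1, Spag9, Tm2d1 and Trappc6b, with Pearson r in log2(FPKM + 0.25) of 0.906, 0.885, 0.878, 0.866 and 0.862 among 12649 genes averaging 1 FPKM or more. Vamp1 encodes a synaptic vesicle protein of the membrane fusion machinery, and Esyt1 a tether between the endoplasmic reticulum and the plasma membrane. Vamp1 averaged 49.1 ± 2.23 FPKM in APP/PS1 mice at 9 months and 52.9 ± 4.85 FPKM in wild-type mice at 9 months, against 42.4 ± 1.84 FPKM in APP/PS1 mice and 41.1 ± 2.64 FPKM in wild-type mice at 6 months. These correlations share the 12 libraries and their 2 ages and are a description. No other member was among the 5.

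Lyz2 was the single member called between the genotypes, and it was higher in APP/PS1 mice at 9 months. It measured 7.51, 8.13 and 9.55 FPKM in APP/PS1 libraries, against 4.63, 3.77 and 3.95 FPKM in wild-type libraries. The groups did not overlap, as in 9.28% of all tested genes for this direction. The means were 8.4 ± 1.04 FPKM in APP/PS1 mice and 4.11 ± 0.455 FPKM in wild-type mice (SD, n = 3 each), a ratio of 2.04. The difference was 0.98 in log2(FPKM + 0.25) (SE 0.12, interval 0.72 to 1.25, adjusted p = 0.00991, limma with Benjamini-Hochberg adjustment). In this comparison 0.0956% of all tested genes were called, and 0.0809% of all tested genes were called higher in APP/PS1 mice. APP/PS1 3 of 9 months had the highest Lyz2 value of the 12 libraries and also the highest pituitary sum. That sum was mostly Pomc, at 228 FPKM. The other pituitary markers there, Gh at 7.94 FPKM and Prl at 1.03 FPKM, were lower than in the same group's other libraries. Those were at 31.1 and 5.18 FPKM in APP/PS1 1 and at 13.2 and 2.62 FPKM in APP/PS1 2. Without APP/PS1 3 the Lyz2 difference was 0.89 and the adjusted p by limma 0.052, and the call ended. The part of Pomc or of pituitary RNA in this was not tested.

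At 6 months Lyz2 measured 6.48, 7.27 and 7.5 FPKM in APP/PS1 libraries, against 5.76, 7.25 and 7.57 FPKM in wild-type libraries. These overlapped, and the difference was 0.05 (interval -0.21 to 0.32, adjusted p = 0.907 by limma). No member was called at 6 months, where 0.0441% of all tested genes were. The genotype difference at 9 months exceeded that at 6 months by 0.93 (SE 0.17, interval 0.56 to 1.31), with an unadjusted p of 0.000187 but an adjusted p of 0.204 by limma, so that the change with age did not pass. A single gene (0.00736%) passed in that comparison, and it was no member.

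The low value of Lyz2 in the older wild-type mice set its pattern apart from that of Pglyrp1. Lyz2 averaged 4.11 ± 0.455 FPKM at 9 months against 6.86 ± 0.964 FPKM at 6 months in wild-type mice, and no library overlapped, as in 9.17% of all genes for this direction. The difference was -0.70 (interval -0.96 to -0.44, adjusted p = 0.11 by limma). In APP/PS1 mice Lyz2 averaged 8.4 ± 1.04 FPKM at 9 months against 7.08 ± 0.535 FPKM at 6 months. The libraries did not overlap, as in 10.8% of all genes for the direction up, but only by the gap between 7.511 and 7.504 FPKM. The difference was 0.23 (interval -0.03 to 0.50, adjusted p = 0.444 by limma). Both age comparisons missed the threshold, which 0% of genes passed in APP/PS1 mice (1784 had an unadjusted p under 0.05) and 0.0441% in wild-type mice.

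Lyz1, the neighbouring near copy of Lyz2 that in mice is known from Paneth cells of the gut, had at most 0.0587 FPKM and was listed at 0 in 7 of the 12 libraries. Reads that fit both genes could have been split between them by the authors' counting, and the sum of the 2 genes gave a log2 difference of 0.99 at 9 months. The genes most like Lyz2 over the 12 libraries were Ctsh, Pik3c3, Zfp784, Gusb and Adap2, with Pearson r of 0.867, 0.849, 0.849, 0.844 and 0.836. Ctsh (cathepsin H) and Gusb (beta-glucuronidase) are lysosomal enzymes. Ctsh averaged 4.43 ± 0.476 FPKM in APP/PS1 mice and 3.25 ± 0.166 FPKM in wild-type mice at 9 months.

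Summed levels of markers of microglia, the resident macrophages of the brain, were also apart between the genotypes at 9 months. Summed over 8 homeostatic microglia markers, the level was 152 to 186 FPKM in APP/PS1 libraries and 124 to 141 FPKM in wild-type libraries, and over 7 markers of activated microglia it was 49.3 to 58 FPKM in APP/PS1 libraries and 26.5 to 31.6 FPKM in wild-type libraries. Of the homeostatic markers all 8 passed the filter on level and none was called, with a median difference of 0.32, and of the activated markers 5 passed it, with a median of 0.95. Of the activated markers, Cst7 (a protease inhibitor) and Trem2 (a lipid receptor of microglia) were called at 9 months. Cst7 averaged 4.02 ± 0.573 FPKM in APP/PS1 mice and 0.115 ± 0.118 FPKM in wild-type mice. Its log2 difference was 3.59 (limma adjusted p = 1.41e-05), a size that depends on the constant added to such low wild-type values. Trem2 averaged 12.6 ± 1.03 FPKM in APP/PS1 mice and 5.98 ± 0.517 FPKM in wild-type mice. Its log2 difference was 1.05 (limma adjusted p = 0.00622). The other tested markers, Tyrobp (0.95), Spp1 (0.31) and Lpl (0.02), were not called at 9 months. Cst7 was also called at 6 months (log2 difference 2.71, limma adjusted p = 0.000278). Lyz2 and these sums had the same pattern in some comparisons and not in others. At 6 months the activated sum was 39.6 to 42.8 FPKM in APP/PS1 libraries and 30.9 to 35.9 FPKM in wild-type libraries, while Lyz2 overlapped there. The homeostatic sum overlapped at 6 months as Lyz2 did, at 144 to 152 FPKM in APP/PS1 libraries and 124 to 148 FPKM in wild-type libraries. In wild-type mice the homeostatic sum overlapped between the ages, at 124 to 141 FPKM at 9 months and 124 to 148 FPKM at 6 months, while Lyz2 did not. The activated sum in wild-type mice overlapped too, at 26.5 to 31.6 FPKM at 9 months and 30.9 to 35.9 FPKM at 6 months. Border macrophage markers (6 genes) summed to 3.82 to 4.53 FPKM in APP/PS1 libraries and 3.51 to 4.34 FPKM in wild-type libraries at 9 months. The part of cell numbers in the Lyz2 result was not tested, and in bulk tissue fewer cells of a type and less RNA per cell cannot be told apart.

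**Figure D2:**
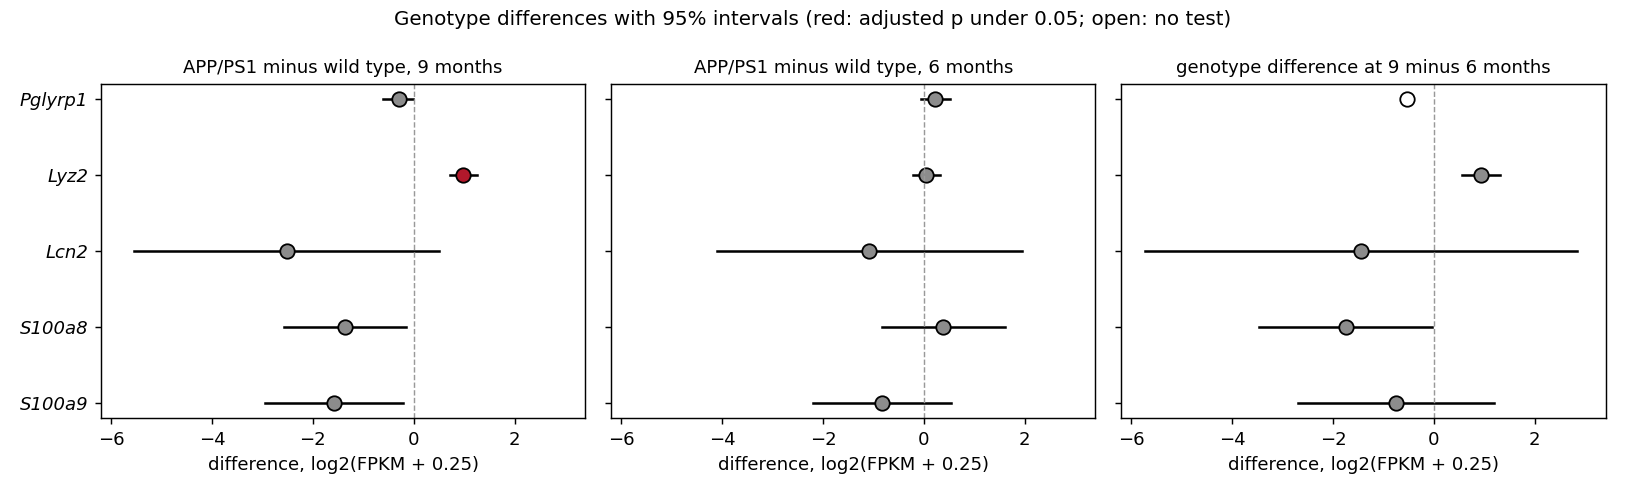
Difference in log2(FPKM + 0.25) between APP/PS1 and wild-type mice (horizontal axis) at 9 months, at 6 months and the first minus the second, for the 5 genes that passed the expression filter. Points are limma estimates and lines their 95% intervals (the open Pglyrp1 point has no test); Lyz2 at 9 months, at 0.98, is the single red (called) point, and the intervals of Lcn2 are the widest.

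Lcn2, S100a8 and S100a9 varied widely within groups, and none was called in any of the 5 comparisons. Lcn2 measured 0.356, 0.0395 and 1.1 FPKM in APP/PS1 libraries at 9 months, against 8.21, 12.8 and 0.157 FPKM in wild-type libraries at 9 months. The younger mice gave 1.91, 0.187 and 0 FPKM in APP/PS1 libraries, against 0.306, 6.59 and 0.336 FPKM in wild-type libraries. Within the wild-type group of 9 months the libraries thus covered nearly the whole range of the series. The genotype difference at 9 months was -2.52 in log2(FPKM + 0.25), with an interval of -5.55 to 0.50 and an adjusted p of 0.594 by limma, and at 6 months it was -1.08 (interval -4.10 to 1.95, adjusted p = 0.806). The interval at 9 months includes both no difference and a very large one.

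S100a8 measured 0.608, 0.461 and 0.481 FPKM in APP/PS1 libraries at 9 months, against 3.38, 1.79 and 0.783 FPKM in wild-type libraries. The groups did not overlap, as in 8% of all tested genes for this direction, but the difference of -1.37 (interval -2.58 to -0.15) had an unadjusted p of 0.0308 and an adjusted p of 0.453 by limma. At 6 months it measured 1.68, 0.785 and 1.23 FPKM in APP/PS1 libraries, against 0.316, 2.52 and 0.601 FPKM in wild-type libraries, which overlapped (difference 0.38, adjusted p = 0.834 by limma). The APP/PS1 libraries of 9 months were also all below those of 6 months, as in 6.73% of all genes, with a difference of -0.91 (interval -2.13 to 0.30, adjusted p = 0.52).

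S100a9, the partner of S100a8 in calprotectin, measured 0.548, 0.28 and 0.0715 FPKM in APP/PS1 libraries at 9 months, against 3.9, 1.31 and 0.31 FPKM in wild-type libraries. These overlapped, with a difference of -1.58 (interval -2.95 to -0.21, unadjusted p = 0.0278, adjusted p = 0.435 by limma). In the mice of 6 months S100a9 was at 0.28, 0.336 and 0.472 FPKM in APP/PS1 libraries, against 0.427, 1.63 and 0.741 FPKM in wild-type libraries (difference -0.83, adjusted p = 0.639). In each library nearly all S100a9 signal stood under one of its 2 listed transcripts, and in the 3 libraries with the highest sums that was ENSMUST00000069960. It was ENSMUST00000117167 in APP/PS1 1 and 2 of 6 months, APP/PS1 1 and 3 of 9 months and wild type 3 of 9 months. The S100a9 sums compared between groups thus rest on different transcripts in different libraries.

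The 3 highest libraries were the same for these 3 genes, namely wild type 1 and 2 of 9 months and wild type 2 of 6 months. In them Lcn2 was 6.59 to 12.8 FPKM, against 0 to 1.91 FPKM in the other 9 libraries. S100a8 was 1.79 to 3.38 FPKM in the 3, against 0.316 to 1.68 FPKM in the other 9, and S100a9 was 1.31 to 3.9 FPKM, against 0.0715 to 0.741 FPKM. These 3 libraries also had high choroid plexus sums of 296 to 345 FPKM. Yet 4 other libraries with sums of 298 to 355 FPKM had Lcn2 at 0 to 1.1 FPKM, and the 5 libraries with sums of 6.13 to 117 FPKM had Lcn2 at 0.0395 to 1.91 FPKM. Of the 7 neutrophil markers, Retnlg and Cxcr2 also had their 3 highest values in these libraries. The share of all genes with the same 3 highest libraries was not counted, so how unusual this is remains unknown. Retnlg, a secreted protein of neutrophils, was at 0.782 and 0.273 FPKM in wild type 1 and 2 of 9 months and at 0.283 FPKM in wild type 2 of 6 months. In APP/PS1 3 of 6 months it was at 0.231 FPKM, the next value. Cxcr2, a chemokine receptor of neutrophils, was at 0.0654 and 0.0544 FPKM in wild type 1 and 2 of 9 months and at 0.0262 FPKM in wild type 2 of 6 months, and next at 0.0244 FPKM in APP/PS1 3 of 9 months. The other 5 markers, Ly6g, Csf3r, Mmp8, Mpo and Elane, had other libraries among their 3 highest. Whether choroid plexus tissue or neutrophils had a part in the high values was not tested. Of the 3 libraries, 2 lie in the wild-type group of 9 months. The genotype differences at 9 months without wild type 1 of that age were -1.90 for Lcn2, -0.93 for S100a8 and -0.86 for S100a9. Without wild type 2 they were -1.58, -1.34 and -1.57 for the same genes, and without wild type 3, the low library, -4.09, -1.83 and -2.30. None was called in these fits.

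**Figure D3:**
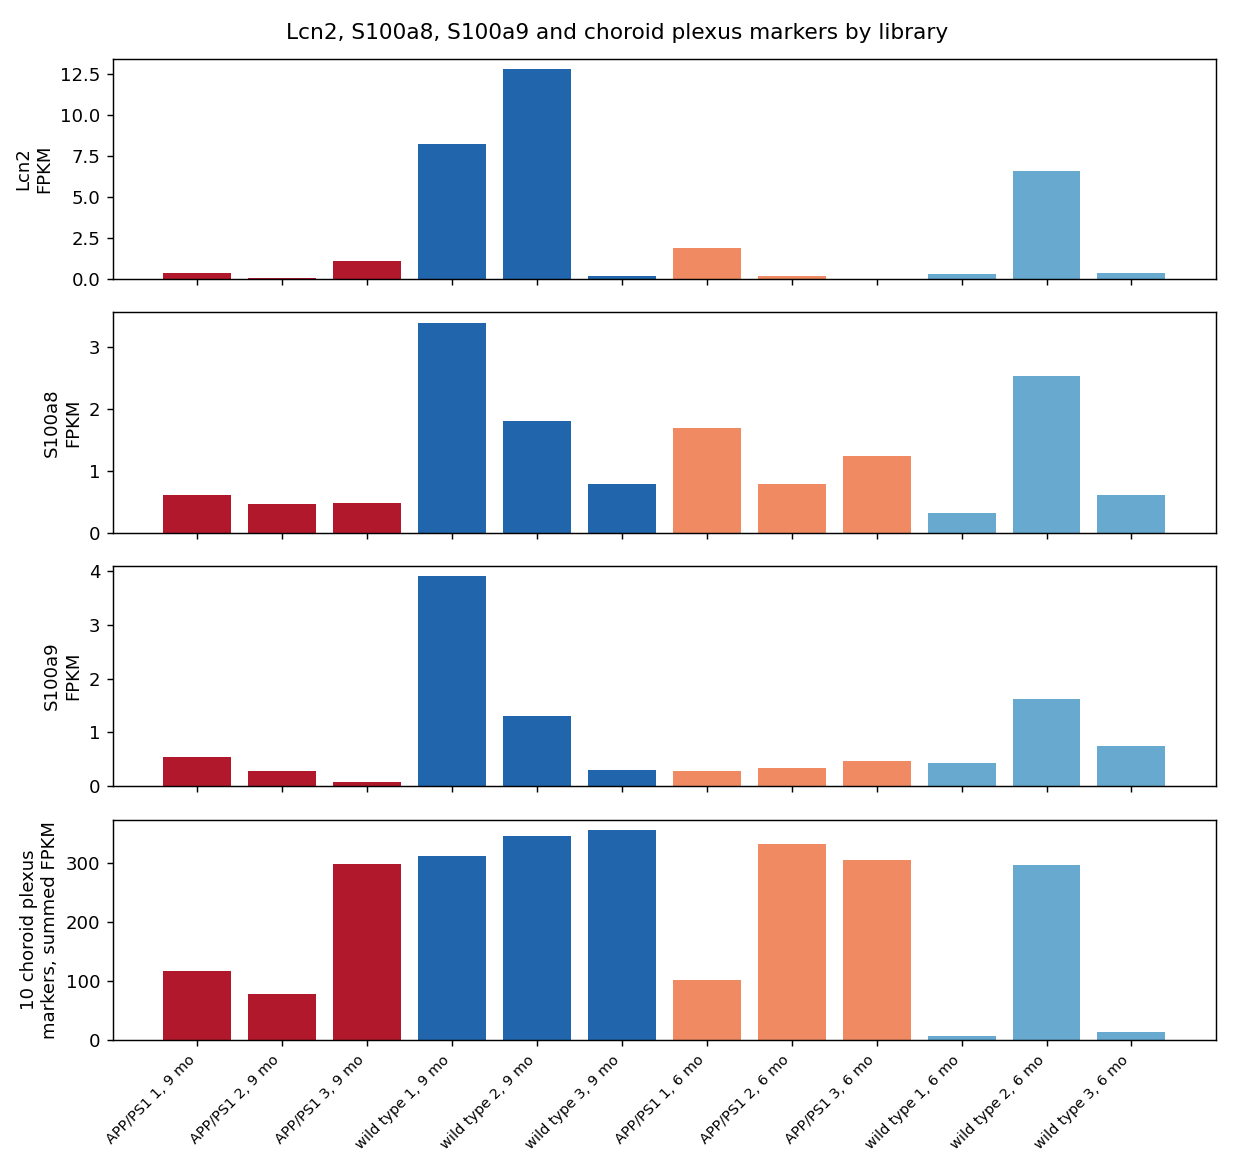
FPKM of Lcn2, S100a8 and S100a9 and summed FPKM of 10 choroid plexus markers (vertical axes, each starting at 0) in each of the 12 libraries, coloured by group. The bars of the 3 genes are highest in wild type 1 and 2 of 9 months and wild type 2 of 6 months, and 4 further libraries have choroid plexus sums of 298 to 355 FPKM without high Lcn2.

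Ngp and Camp were too low to test, with means under the minimum of 0.5 FPKM. Ngp measured 0.0351, 0.219 and 0.0937 FPKM in APP/PS1 libraries at 9 months, against 0.271, 0 and 0.156 FPKM in wild-type libraries. Its values at 6 months were 0.223, 0.121 and 0.415 FPKM in APP/PS1 libraries, against 0.0541, 0.409 and 0.201 FPKM in wild-type libraries. Camp measured 0, 0.121 and 0.124 FPKM in APP/PS1 libraries at 9 months, against 0.132, 0 and 0 FPKM in wild-type libraries. At 6 months Camp measured 0, 0 and 0.0805 FPKM in APP/PS1 libraries, against 0.0492, 0.0666 and 0 FPKM in wild-type libraries. All 4 pairs of groups overlapped for both genes. In a fit with no filter on level (18678 genes) their adjusted p by limma was between 0.67 and 1 in the 5 comparisons. Thus 5 of the 7 members were tested.

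Most genes that define neutrophils were near 0. Of 7 neutrophil markers, Ly6g averaged 0.00904 FPKM over the 12 libraries and was listed at 0 in 10 of them, and Cxcr2 averaged 0.0198 FPKM, the granule enzymes Mpo 0.0179 FPKM, Elane 0.0231 FPKM and Mmp8 0.029 FPKM. Retnlg averaged 0.146 FPKM, with 0.782 FPKM at most and 0 in 5 libraries. Csf3r, the receptor of granulocyte colony stimulating factor, was the 1 marker that passed the filter, at a mean of 1.47 FPKM, and microglia express it too. The 7 markers summed to 1.8 to 2 FPKM in APP/PS1 libraries and 1.41 to 2.35 FPKM in wild-type libraries at 9 months, and to 1.56 to 2.02 FPKM in APP/PS1 libraries and 1.22 to 1.71 FPKM in wild-type libraries at 6 months. Of 4 monocyte markers only Ly6c2 passed the filter, and the reads of this gene can be shared with its Ly6 relatives. The 4 summed to 0.811 to 2.07 FPKM in APP/PS1 libraries and 1.29 to 3.1 FPKM in wild-type libraries at 9 months. Red cell markers (5 genes) summed to 286 to 408 FPKM in APP/PS1 libraries and 229 to 495 FPKM in wild-type libraries at the same age, so the groups overlapped. Lymphocyte markers (5 genes) summed to at most 0.205 FPKM in any library. At 9 months the sums in APP/PS1 and wild-type libraries were 151 to 164 and 150 to 163 FPKM for 11 endothelial markers, and 46.3 to 69.7 and 54.8 to 67.8 FPKM for 8 meningeal markers. They were 759 to 815 and 631 to 796 FPKM for 6 oligodendrocyte markers, and 351 to 383 and 287 to 316 FPKM for 7 astrocyte markers. Of the astrocyte markers Gfap, the filament protein of reactive astrocytes, was called (131 ± 18.3 FPKM in APP/PS1 mice and 63.2 ± 11.6 FPKM in wild-type mice, log2 difference 1.06, limma adjusted p = 0.0138). The 7 astrocyte markers had a median difference of 0.04 at 9 months, with 5 higher and 2 lower in APP/PS1 mice.

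Other genes of neutrophil granules and of the phagocyte oxidase, which makes superoxide, were then examined as a list of 20, of which 7 passed the filter on level. None was called at either age. At 9 months all 7 had differences at or above 0, with a median of 0.45 in log2(FPKM + 0.25) beside 0.01 over all tested genes, and at 6 months 4 of the 7 were above 0, with a median of 0.06 beside -0.01. Itgb2, a chain of the leukocyte integrins, averaged 2.09 ± 0.0632 FPKM in APP/PS1 mice and 1.4 ± 0.141 FPKM in wild-type mice at 9 months (difference 0.51, limma adjusted p = 0.123). The oxidase subunit gene Cyba averaged 4.97 ± 0.731 FPKM in APP/PS1 mice and 3.22 ± 0.186 FPKM in wild-type mice (0.58, limma adjusted p = 0.171). Ncf1, another subunit, averaged 3.1 ± 0.441 FPKM in APP/PS1 mice and 2.18 ± 0.0226 FPKM in wild-type mice (0.45, limma adjusted p = 0.182). These 3 did not overlap between the genotypes, as in 9.28% of all tested genes for this direction, and microglia express all 3. They were named because their p-values by limma were the 3 smallest of the list.

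Of 9 further antimicrobial effectors, 8 were in the table, 4 passed the filter and none was called. All 4 had differences above 0 at 9 months, with a median of 0.65, and at 6 months, with a median of 0.32. Mpeg1, a pore-forming protein of macrophages, measured 10.3, 14.9 and 12 FPKM in APP/PS1 libraries at 9 months, against 5.49, 6.11 and 5.6 FPKM in wild-type libraries. The difference of 1.06 was larger than that of Lyz2, but with its wider spread the adjusted p by limma was 0.156. Slc11a1, a metal transporter of the phagosome, averaged 1.07 ± 0.0927 FPKM in APP/PS1 mice and 0.525 ± 0.0236 FPKM in wild-type mice (0.76, limma adjusted p = 0.147). Ang, a ribonuclease, overlapped between the genotypes (0.54, adjusted p = 0.497).

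Genes that sense peptidoglycan showed no call either. Of the relatives of Pglyrp1, named here although outside the rule for named genes, Pglyrp3 and Pglyrp4 were listed at 0 in every library and Pglyrp2 averaged 0.00418 FPKM, with at most 0.0193 FPKM in a library. Of 14 sensing genes 6 passed the filter, 3 with differences above 0 and 3 below at 9 months, with a median of 0.01. Slc15a3, a lysosomal transporter of peptidoglycan fragments, averaged 0.838 ± 0.0882 FPKM in APP/PS1 mice and 0.515 ± 0.0919 FPKM in wild-type mice (0.51, limma adjusted p = 0.381). Ripk2, the kinase below the NOD receptors, differed by -0.11 (adjusted p = 0.823) and Slc15a4 by -0.06 (adjusted p = 0.868).

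Of 9 genes for receptors of the encoded proteins, 4 passed the filter and none was called, with 3 differences above 0 and a median of 0.09 at 9 months. Trem1, a receptor reported to bind Pglyrp1, averaged 0.00423 FPKM and was listed at 0 in 9 libraries. Tlr4, a receptor for S100a8 and S100a9, averaged 0.885 ± 0.0937 FPKM in APP/PS1 mice and 0.795 ± 0.137 FPKM in wild-type mice (0.12, limma adjusted p = 0.809). Its cofactors Ly96 and Cd14 differed by 0.38 (adjusted p = 0.7) and 0.06 (adjusted p = 0.961).

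Regulators of granulocyte genes and of the acute phase were a list of 12, of which 8 passed the filter and none was called, with 5 differences above 0 and a median of 0.11 at 9 months. Csf3r averaged 1.85 ± 0.0889 FPKM in APP/PS1 mice and 1.25 ± 0.169 FPKM in wild-type mice (0.49, limma adjusted p = 0.234). Cebpa, a transcription factor of myeloid cells, averaged 6.7 ± 0.392 FPKM in APP/PS1 mice and 5.16 ± 0.845 FPKM in wild-type mice (0.37, limma adjusted p = 0.327). Cebpb, its inflammation-induced relative, averaged 6.12 ± 0.903 FPKM in APP/PS1 mice and 7.36 ± 0.314 FPKM in wild-type mice (-0.27, limma adjusted p = 0.471). Cebpe and Gfi1, which act in neutrophil maturation, averaged 0.00398 and 0.00456 FPKM.

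**Figure D4:**
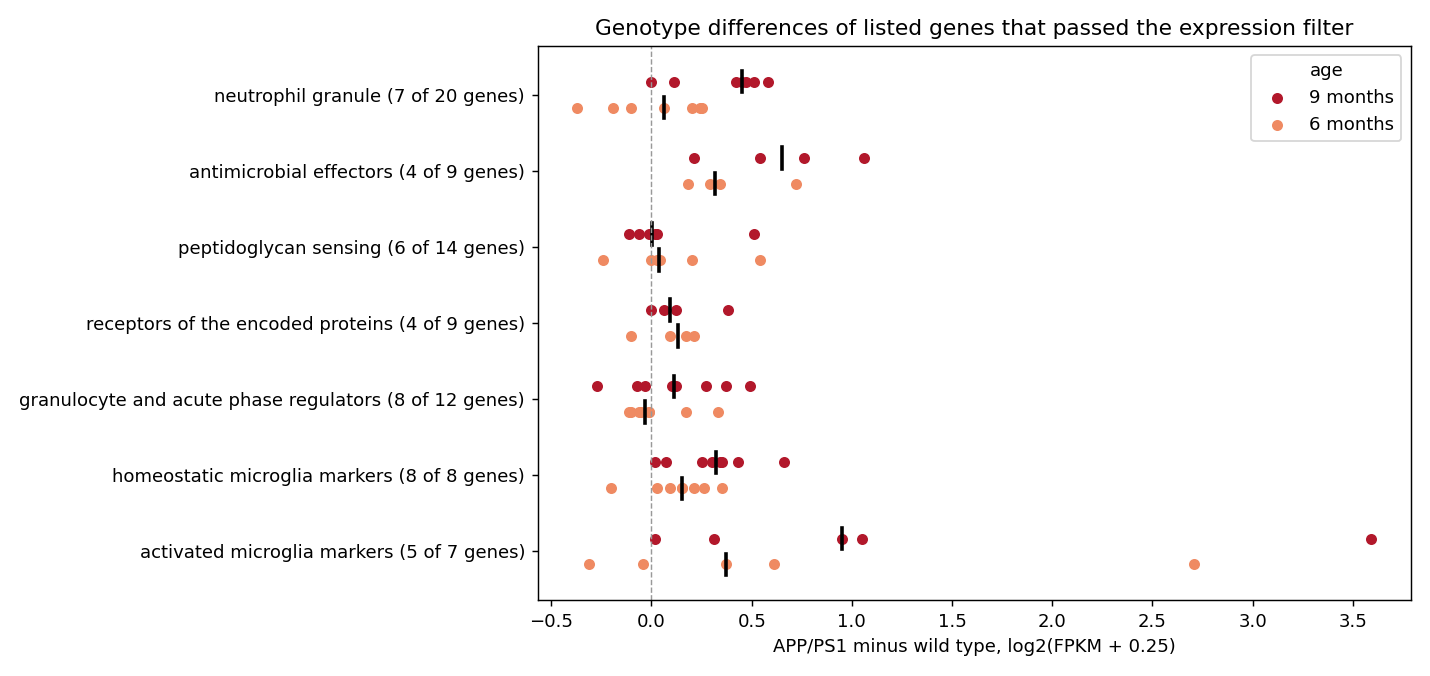
Difference in log2(FPKM + 0.25) between APP/PS1 and wild-type mice (horizontal axis) for listed genes that passed the expression filter, at 9 months (dark red) and 6 months (orange). Each point is a gene and black ticks are medians of the points; at 9 months the median of the neutrophil granule list is 0.45 and that of the activated microglia markers 0.95.

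In the small RNA libraries of the same groups, miRNAs known from blood and myeloid cells were examined. Whether their levels follow the content of such cells in these libraries was not tested. The 2 miRNAs shown are the one most typical of neutrophils and monocytes and the one induced by NF-kB in innate immune signalling. Capitals mark the seed (bases 2 to 8), the sequences are from RefSeq on GRCm38.p6, and the 2 seeds differ.
mmu-miR-223-3p, chrX:96242884-96242905, forward strand: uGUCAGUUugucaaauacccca
mmu-miR-146a-5p, chr11:43374435-43374456, reverse strand: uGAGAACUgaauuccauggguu
Of 11 blood cell miRNAs measured, 9 passed edgeR's filter on low counts and none was called in any of the 5 comparisons. In each comparison 0% of 560 miRNAs were called by edgeR's quasi-likelihood test, and 30 to 50 had an unadjusted p under 0.05.

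The miRNA miR-223-3p had 10 to 24 reads per library. In CPM, counts scaled to a common total of miRNA reads, it stood at 1.89, 2.08 and 2.47 CPM in APP/PS1 libraries at 9 months, against 2.58, 3.99 and 2.48 CPM in wild-type libraries. The groups were apart only by the gap between 2.47 and 2.48 CPM, as in 6.61% of the 560 miRNAs for this direction, and the log2 change was -0.48 (SE 0.33, edgeR adjusted p = 0.839). At 6 months it stood at 3.29, 1.76 and 2.36 CPM in APP/PS1 libraries, against 2.71, 1.95 and 1.63 CPM in wild-type libraries (log2 change 0.25, edgeR adjusted p = 0.895).

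The miRNA miR-146a-5p stood at 747, 887 and 796 CPM in APP/PS1 libraries at 9 months, against 471, 626 and 793 CPM in wild-type libraries, which overlapped (log2 change 0.38, SE 0.19, edgeR adjusted p = 0.836). At 6 months it stood at 648, 663 and 817 CPM in APP/PS1 libraries, against 527, 677 and 597 CPM in wild-type libraries (0.23, edgeR adjusted p = 0.79). Over the 12 libraries miR-223-5p ranged between 0.252 and 1.77 CPM, miR-142a-3p between 7.43 and 21 CPM, miR-142a-5p between 18.7 and 32.7 CPM and miR-155-5p between 2.44 and 6.76 CPM. The range was 5840 to 7919 CPM for miR-21a-5p and 87.3 to 145 CPM for miR-150-5p. The red cell miRNAs miR-451a, miR-144-3p and miR-486a-5p ranged over 230 to 854, 0.183 to 1.66 and 58.4 to 113 CPM.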

How the data were processed

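Long RNA and small RNA libraries (12 each) were used, grouped by the labels' genotype and age. Per the file headers the authors deposited FPKM per transcript for mRNA and whole-number counts per miRNA. The submitters' processing notes name Bowtie 0.12.2 and build mm8 without saying what each was used for. No counting tool is named in the sources used here. Read depth behind the FPKM is unknown, and miRNA libraries held 5082755 to 8595108 reads. CPM were computed from the deposited counts.

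FPKM of 48717 transcripts were summed to 22154 genes (98.1% of gene IDs matched a names table). Genes averaging at least 0.5 FPKM (13593) were tested on log2(FPKM + 0.25), which understates changes of low genes, with limma 3.58.1 (eBayes with trend) in R 4.3.3. miRNA counts were tested with edgeR 4.0.16 (TMM, quasi-likelihood, filterByExpr). Each fit held 4 group means over 12 libraries. Two-sided tests with a Benjamini-Hochberg adjusted p under 0.05 were called. The tests were also run on simulated data with known changes, and the outcome is not used here as support for any result. DESeq2 1.42.0, another pseudocount, no filter, median scaling, a replicate term, separate groups and leaving out each library were alternatives. The labels give no batch.

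The members, lists and tests were chosen with earlier results of these data known. Named genes were the members, Lyz1, list genes called or among the 3 of smallest p at 9 months (for cell type lists, those called), and the 5 most like Pglyrp1 and Lyz2. Cell type lists served as levels. Genes named outside this rule were chosen after their values were seen. They were other neutrophil, monocyte, photoreceptor, pituitary and activated microglia markers, relatives of Pglyrp1, Trem1, Cebpe and Gfi1. One photoreceptor marker is not reported here.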

Additional observations from a re-analysis of the deposited data

How the results depend on the processing

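Lyz2 at 9 months was called with a pseudocount of 1 (log2 difference 0.88), with no filter, with median scaling, with only the groups compared and with Lyz1 added. It was called in 11 of 12 fits that left out a library, with differences of 0.89 to 1.07 and adjusted p by limma of 0.00359 to 0.052, so 0 to 1 members were called there. Deviations of same-numbered libraries from their group means correlated at -0.12 to 0.126 for mRNA and -0.579 to 0.444 for miRNA. Differently numbered libraries were not compared, so these values cannot decide whether the numbers pair libraries. With the replicate number as a block, Lyz2 stayed at 0.98 and called, 13 genes were called between genotypes at 9 months, and 0 in place of 6 between ages in wild type. That count in wild type was 1 with no filter and 12 with only the groups compared, and in APP/PS1 mice 3 in place of 0 with a pseudocount of 1 and with only the groups compared. The Lcn2 age difference in APP/PS1 mice was -0.07 with a pseudocount of 1 and 0.00 with median scaling. Pglyrp1 differed by 1.13 between ages in wild-type mice with a pseudocount of 1.

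Leaving out a library gave 5 to 14 genes called between genotypes at 9 months (5 without APP/PS1 3 and 7 without wild type 1 of that age), 4 to 17 at 6 months, 0 to 5 between ages in APP/PS1 mice, 0 to 13 in wild type and 0 to 4 for the difference between ages. Genotype differences at 6 months then ran over -0.06 to 0.12 for Lyz2, -1.98 to 0.12 for Lcn2, -0.09 to 1.05 for S100a8 and -0.10 to 0.53 for miR-223-3p. Age differences ran over -0.65 to 0.91 for Lcn2 and -0.56 to 0.10 for S100a9 in APP/PS1 mice, and -0.21 to 1.23 for S100a9 in wild type. Called miRNAs were 0 to 2 between genotypes at 9 months, 0 to 12 between ages in APP/PS1 mice, 0 to 2 in wild type and 0 to 2 for the difference. With no filter 14 miRNAs were called at 9 months, 27 at 6 months, 17 with age in APP/PS1 mice, 30 in wild type and 15 for the difference, and 1 blood cell miRNA, miR-451a, with age in each genotype. DESeq2 called 2 at 9 months, 14 with age in APP/PS1 mice and 10 in wild type. The cause was not tested. FPKM give no read depth, so the smallest difference that could be seen at low levels is unknown.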
